A study of Homo sapiens with 15 samples.

Results

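The genes described here are 35 genes of homologous recombination and of the Fanconi anaemia pathway, taken as a list by name from what is known of the pathways and not by their values. Of these, 31 had a probe set that the platform annotation assigns to 1 gene only, among 18132 genes measured in this way. BRCA2, RBBP8, FANCA and FANCD2 had none and were not analysed here. Where a gene had several such probe sets, the brightest one, by its mean over the 15 lines, was kept, and MRE11 is the current symbol of MRE11A.

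Gene expression was measured in 15 established non-small-cell lung cancer (NSCLC) lines, A549, Calu1, Calu3, H1437, H1650, H1781, H1975, H2009, H2228, H226, H3122, H358, H460, H520 and HC827, with 1 Affymetrix PrimeView array per line and no repeat array. All lines were untreated, so the values do not describe a response to radiation. The sources differ on the medium: the labels name DMEM with serum for every line, whereas the methods of the study give A549, Calu1 and Calu3 media that differ from that of the other lines. The part of the medium in the values of these lines was not tested. The labels place all 15 lines in 1 group and name no radioresistant or radiosensitive group, so the lines were not split. Each gene was set against 2 continuous quantities, the log2 value of MKI67, the gene of the proliferation marker Ki-67, and SF2, the fraction of cells that survives 2 Gy in the clonogenic assay of the study. Every value below is a log2 expression value after RMA, so a difference of 1 is a doubling of signal. Levels are compared between lines for 1 gene and never between genes. Each line is 1 sample, so p-values here set a slope or a correlation only against the scatter between these 15 lines. They hold no error of repeat arrays.

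Homologous recombination repairs a broken chromosome by copying the intact sister chromatid, and it is used mainly while DNA is being replicated and after. The broken ends are first cut back to single strands, a recombinase is loaded on these strands with the help of the BRCA proteins, and the strand then invades the sister. The Fanconi proteins act upstream at crosslinks between the strands, where a core complex attaches ubiquitin to a pair of proteins that call in nucleases and the recombination factors. Many of these genes are transcribed as cells enter the cell cycle, which is why a proliferation gene is set beside them.

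Promoters of 27 of the 31 genes were matched by symbol in the RefSeq table of build GRCh38.p14, each from 250 bases before to 50 bases after the annotated start. They were searched on both strands for the letters of 3 elements of genes that follow the cell cycle, the E2F site (TTTCCCGC, TTTCGCGC, TTTGCCGC or TTTGGCGC), the cell cycle homology region CHR (TTTGAA or TTCGAA) and the CCAAT box (CCAAT). E2F letters were found in 3 of 27 promoters (11.1%), those of EXO1, XRCC2 and FANCC. Among all measured genes with a promoter in that table, 656 of 14425 held them (4.55%). CHR letters were found in 5 of 27 (18.5%), against 13.5% of these 14425 promoters, and CCAAT in 11 of 27 (40.7%), against 36.4%. The upstream 250 bases are shown for POLQ and UBE2T, which had the lowest p-values on MKI67 of the 31 genes, for BLM, whose promoter held CCAAT 3 times, and for FANCC, which held E2F letters at 2 places and stood far above the other lines in 1 line. Capitals mark the letters found, read 5′ to 3′ on the strand of the gene, and no base belonged to more than 1 match.
POLQ: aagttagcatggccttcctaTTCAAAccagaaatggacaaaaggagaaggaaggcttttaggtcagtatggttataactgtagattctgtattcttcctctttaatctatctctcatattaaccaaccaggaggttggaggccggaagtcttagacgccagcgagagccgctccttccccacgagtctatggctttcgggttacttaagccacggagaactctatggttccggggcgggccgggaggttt
UBE2T: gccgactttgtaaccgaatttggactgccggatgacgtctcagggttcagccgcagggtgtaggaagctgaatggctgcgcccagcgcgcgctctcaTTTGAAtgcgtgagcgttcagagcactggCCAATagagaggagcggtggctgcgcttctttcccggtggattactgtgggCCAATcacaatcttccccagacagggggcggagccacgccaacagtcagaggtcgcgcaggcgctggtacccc
BLM: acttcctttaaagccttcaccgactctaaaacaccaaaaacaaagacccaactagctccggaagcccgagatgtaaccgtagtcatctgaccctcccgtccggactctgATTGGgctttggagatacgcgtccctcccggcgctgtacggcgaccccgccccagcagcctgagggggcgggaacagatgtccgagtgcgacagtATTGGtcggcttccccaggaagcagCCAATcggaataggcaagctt
FANCC: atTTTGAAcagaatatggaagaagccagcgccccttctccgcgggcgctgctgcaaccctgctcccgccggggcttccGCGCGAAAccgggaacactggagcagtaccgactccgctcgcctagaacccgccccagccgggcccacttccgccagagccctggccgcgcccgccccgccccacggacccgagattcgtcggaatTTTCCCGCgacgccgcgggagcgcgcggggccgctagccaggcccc
These stretches lie at chr3:121545989-121546238, minus strand, for POLQ, at chr1:202341937-202342186, minus strand, for UBE2T, at chr15:90717096-90717345, plus strand, for BLM, and at chr9:95317710-95317959, minus strand, for FANCC. Of the 8 promoters that belonged to genes with an unadjusted p under 0.05 on MKI67 (given below), 0 held E2F letters, 3 held CHR letters and 4 held CCAAT. A match of letters is a description of the sequence, and binding was not measured.

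The lines Calu1 and H460 had the lowest medians over the 31 genes. For each gene the difference of a line from the gene's median over the lines was taken, and the median of these differences over the 31 genes was lowest in Calu1 at -0.81, with 25 of 31 genes under their median. H460 followed at -0.46, H1781 at -0.29, HC827 at -0.25 and H226 at -0.24. The other 10 lines lay between 0.00 (Calu3, H1650 and H520) and 0.27 (H2228), with A549 at 0.25 and 26 of 31 genes above their median. H460 held the lowest value of 8 genes, Calu1 of 7 and HC827 of 6, while H1975 held the highest of 7 and A549 of 6. By this median 5 lines lay under the rest, and the medians of the 10 others differed by no more than 0.27, with 14 genes above and 14 below their median in H520. With 1 array per line these medians have no error of their own. The methods of the study list Calu1, H226 and H520 as squamous and H460 as large cell carcinoma. H1781 and HC827, also among the 5 lowest lines, are listed as adenocarcinoma. The part of histology in these medians was not tested. With the mean of all probe sets of a gene in place of the brightest one, Calu1 (-0.61) and H460 (-0.46) were again the 2 lowest lines.

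**Figure D1:**
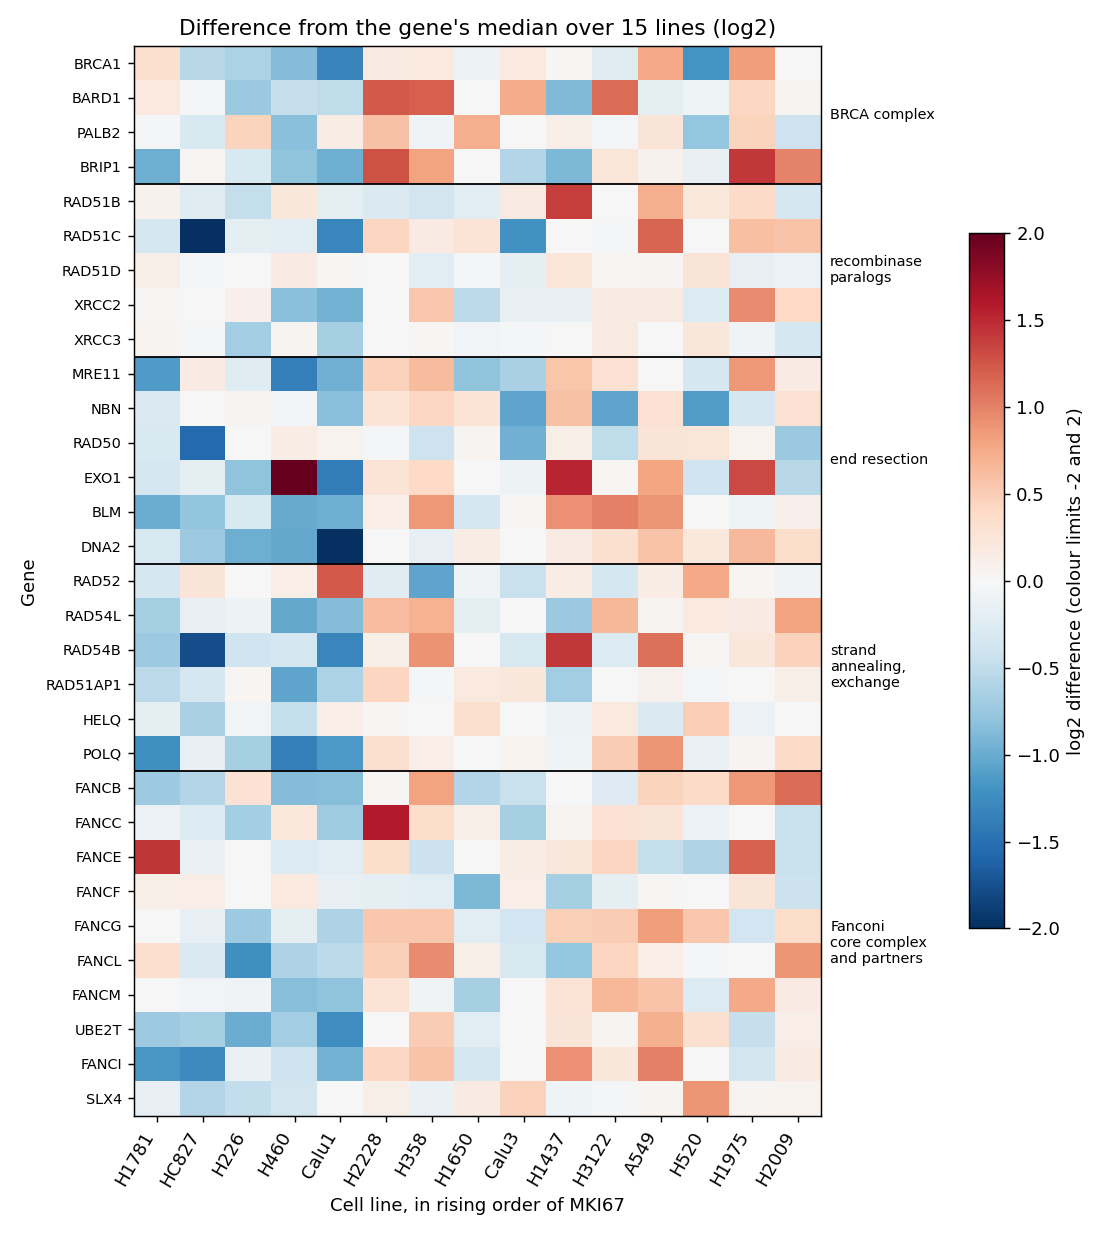
Difference of each of the 31 genes (rows, grouped by role) from its median over the lines, in log2 units, in each of the 15 lines (columns, in rising order of MKI67). Blue is below and red above the gene's median; the columns of Calu1 and H460 are mostly blue, with EXO1 in H460 and RAD52 in Calu1 as red exceptions.

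Calu1, H226 and HC827 had a median difference under 0 in all 5 roles. In Calu1 the median difference was -0.74 for the BRCA complex, -0.97 for end resection, -0.67 for the recombinase paralogs, -0.75 for strand annealing and exchange and -0.66 for the Fanconi core complex and its partners. In H226 it lay between -0.47 and -0.08, and in HC827 between -0.45 and -0.04. In H460 it was -0.82 for the BRCA complex and -0.76 for strand annealing and exchange, but 0.06 for the recombinase paralogs. H2228, the line with the highest overall median, had 0.90 for the BRCA complex and 0.00 for the recombinase paralogs. H520 had -0.46 for the BRCA complex and 0.21 for the paralogs.

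MKI67 was measured at 8.33 in H1781, 8.80 in HC827, 8.94 in H226, 9.66 in H460, 9.87 in Calu1, 10.19 in H2228, 10.19 in H358, 10.36 in H1650, 10.45 in Calu3, 10.53 in H1437, 10.94 in H3122, 11.13 in A549, 11.31 in H520, 11.51 in H1975 and 11.72 in H2009. The 5 lines with the lowest MKI67 were the 5 with the lowest median over the 31 genes, although Calu1 was the lowest of these in the genes and the highest in MKI67. Over the 15 lines the median and MKI67 had a Pearson r of 0.59 and a Spearman rho of 0.59. Both come from the same arrays, so these are descriptions. Without Calu1 and H460, r was 0.78 and rho 0.45 over 13 lines. When a straight line on MKI67 was taken off each gene, Calu1 still had a median of -0.67 with 25 of 31 genes below the line, and H460 had -0.35 with 20. H520 (-0.24) and H2009 (-0.14) had smaller medians but more genes below the line than H460, 22 and 24. H358 (0.36) and H2228 (0.26, with 27 of 31 genes above the line) lay highest.

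**Figure D2:**
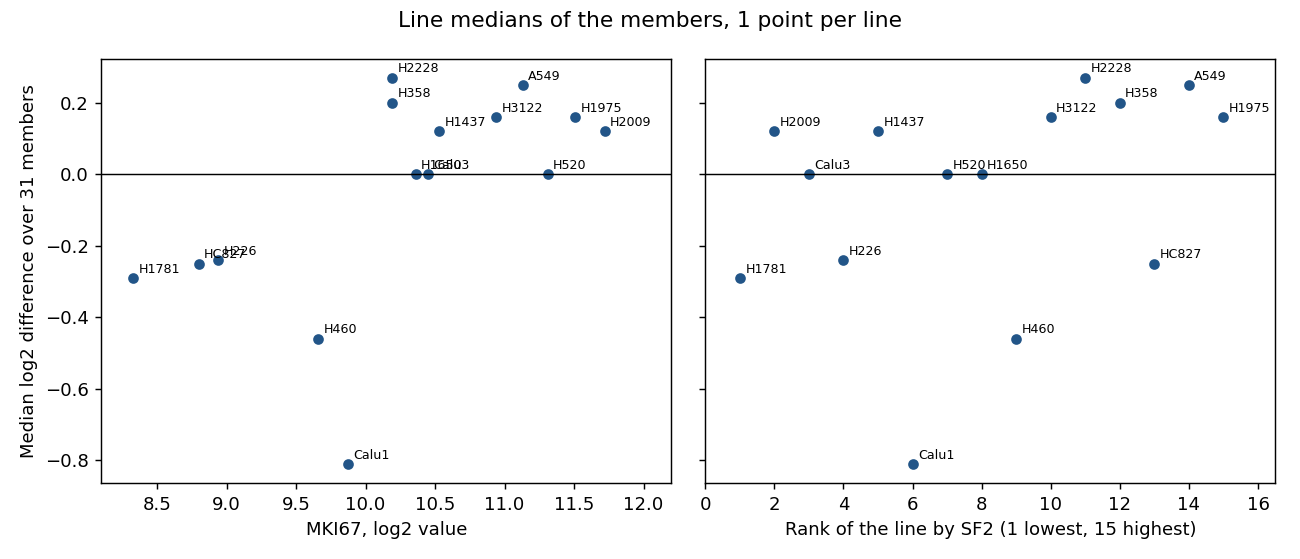
Median over the 31 genes of the log2 difference from the gene's median, for each of the 15 lines (1 point each), against the log2 value of MKI67 (left) and against the rank of the line by SF2 (right). The 5 points under -0.2 have the 5 lowest MKI67 values, whereas they lie at ranks 1, 4, 6, 9 and 13 of SF2.

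To ask which genes followed proliferation, a slope on MKI67 was fitted for every gene with limma, in log2 units per standard deviation (SD) of MKI67 over the lines. Of the 31 genes, 0 had an adjusted p under 0.05 (Benjamini-Hochberg over 18131 genes, lowest 0.507 for POLQ), where 0.0717% of all genes, 13 in number, passed, all with a positive slope. At an unadjusted p under 0.05 there were 11 of 31 genes, all 11 with a positive slope, where 5.31% of all genes passed, 3.33% with a positive slope and 1.99% with a negative one. The slope was positive in 26 of 31 genes with a median of 0.19. Over all genes it was positive in 9929 of 18131 with a median of 0.01. The 11 genes were POLQ, UBE2T, DNA2, FANCB, SLX4, RAD54B, BLM, FANCI, RAD51C, RAD54L and BRIP1. None of these slopes passed after adjustment, so they are values and not calls. The count at the unadjusted p stayed between 9 and 12 when each line was left out in turn.

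**Figure D3:**
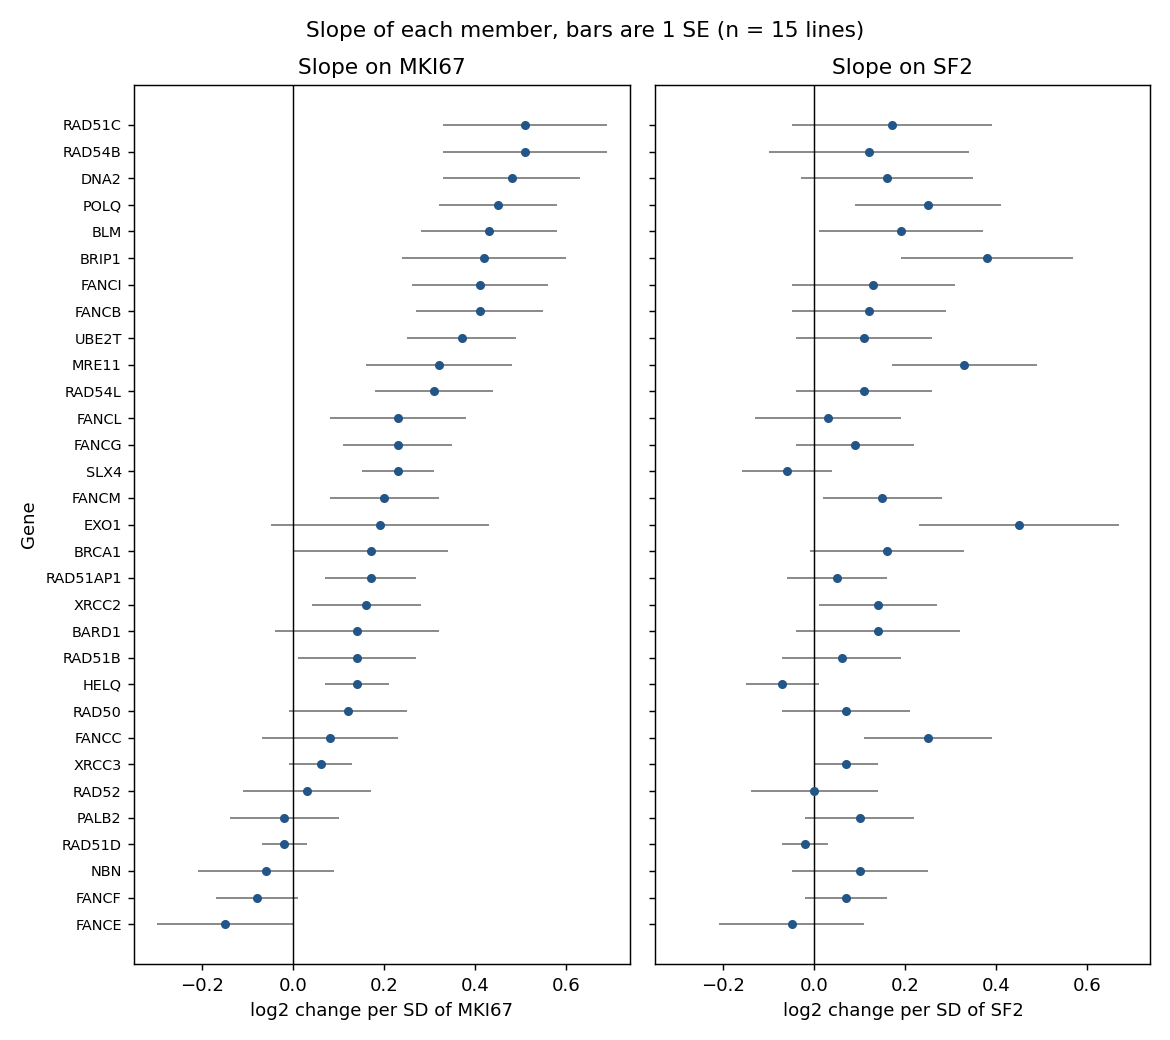
Slope of each of the 31 genes on MKI67 (left) and on SF2 (right), in log2 units per SD of the predictor over the 15 lines. Points are slopes from limma and bars 1 SE; genes are ordered by their slope on MKI67, from FANCE at -0.15 to RAD54B at 0.51.

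Among the genes of strand annealing and exchange, 3 of 6 were among the 11. POLQ, the polymerase that joins ends through short shared sequences, lay between 7.10 in H460 and 9.34 in A549 with a median of 8.46. Its 4 lowest lines, H460, H1781, Calu1 and H226, were also among the 5 lowest in MKI67, and its slope was 0.45 (SE 0.13, limma adjusted p = 0.507). Pearson's r was 0.68 (permutation p = 0.00574, n = 15) and 0.66 without H1781 and HC827, the lines farthest from the median of MKI67. RAD54B, a motor protein that helps the recombinase strand to invade, had the joint largest slope of the 31 genes, 0.51 (SE 0.18, limma adjusted p = 0.735). It lay between 5.83 in HC827 and 9.02 in H1437 with a median of 7.60. Its r of 0.60 (permutation p = 0.0171, n = 15) was 0.41 without H1781 and HC827, so part of that relation rested on these 2 lines. RAD54L, its close relative, lay between 6.39 in H460 and 8.23 in H2009 with a slope of 0.31 (SE 0.13). RAD51AP1, which stimulates strand invasion, and HELQ, a helicase that can anneal strands, had slopes of 0.17 (SE 0.10) and 0.14 (SE 0.07). The 2 probe sets of HELQ had an r of -0.04 over the lines, so its values depend on the probe set.

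RAD52, which anneals complementary single strands, ran against the other genes. It lay between 4.33 in H358 and 6.60 in Calu1 with a median of 5.38, and its slope on MKI67 was 0.03 (SE 0.14). Calu1, the lowest line over the 31 genes, was thus the highest in RAD52, with H520 next at 6.13. Over the 15 lines RAD52 had an r of -0.65 with BARD1 and of -0.63 with BRCA1, and its median r with the other genes was -0.33, the lowest of the 31. The probe set belongs to a class whose probes may bind other transcripts too, as do those used for BRCA1, XRCC2 and FANCE. The other 11 probe sets of RAD52 had r between 0.39 and 0.95 with it.

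End resection contributed 2 of its 6 genes, DNA2 and BLM. DNA2, a nuclease and helicase that shortens the 5′ strand, lay at 5.65 in Calu1, 6.78 in H460, 6.82 in H226, 7.08 in HC827 and 7.48 in H1781, and between 7.64 and 8.45 in the other 10 lines. The 5 lines with the lowest MKI67 were therefore the 5 with the lowest DNA2. Among these 5 the order was reversed, from H1781, lowest in MKI67 and highest in DNA2, to Calu1. Spearman's rho was 0.89 (permutation p = 5e-05, n = 15) and Pearson's r 0.64, or 0.75 without H1781 and HC827. The slope was 0.48 (SE 0.15, limma adjusted p = 0.640), and without Calu1 it was 0.42 (SE 0.08, limma adjusted p = 0.148). Calu1 lay 1.13 under the next line, a distance for which DNA2 was singled out, and the second probe set of DNA2 was also lowest in Calu1, at 5.36 against 5.66 in the next line. Of the 10 measured genes nearest to DNA2 in the order of assembly GRCh38.p14, all 10 lay under their own median in Calu1, with a median difference of -0.39. In 2 of them, SLC25A16 and CCAR1, the lowest value was there. The differences ran from -0.04 in MYPN to -1.41 in PBLD, and MYPN (3.40), ATOH7 (3.79) and TET1 (3.97) lay under the lower quartile of the array. The share of all genes under their median in Calu1 was not counted. These neighbours were chosen after the value of DNA2 had been seen, and copy number was not measured. BLM, the helicase that works with DNA2, lay between 7.03 in H460 and 9.05 in H3122 with a slope of 0.43 (SE 0.15).

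**Figure D4:**
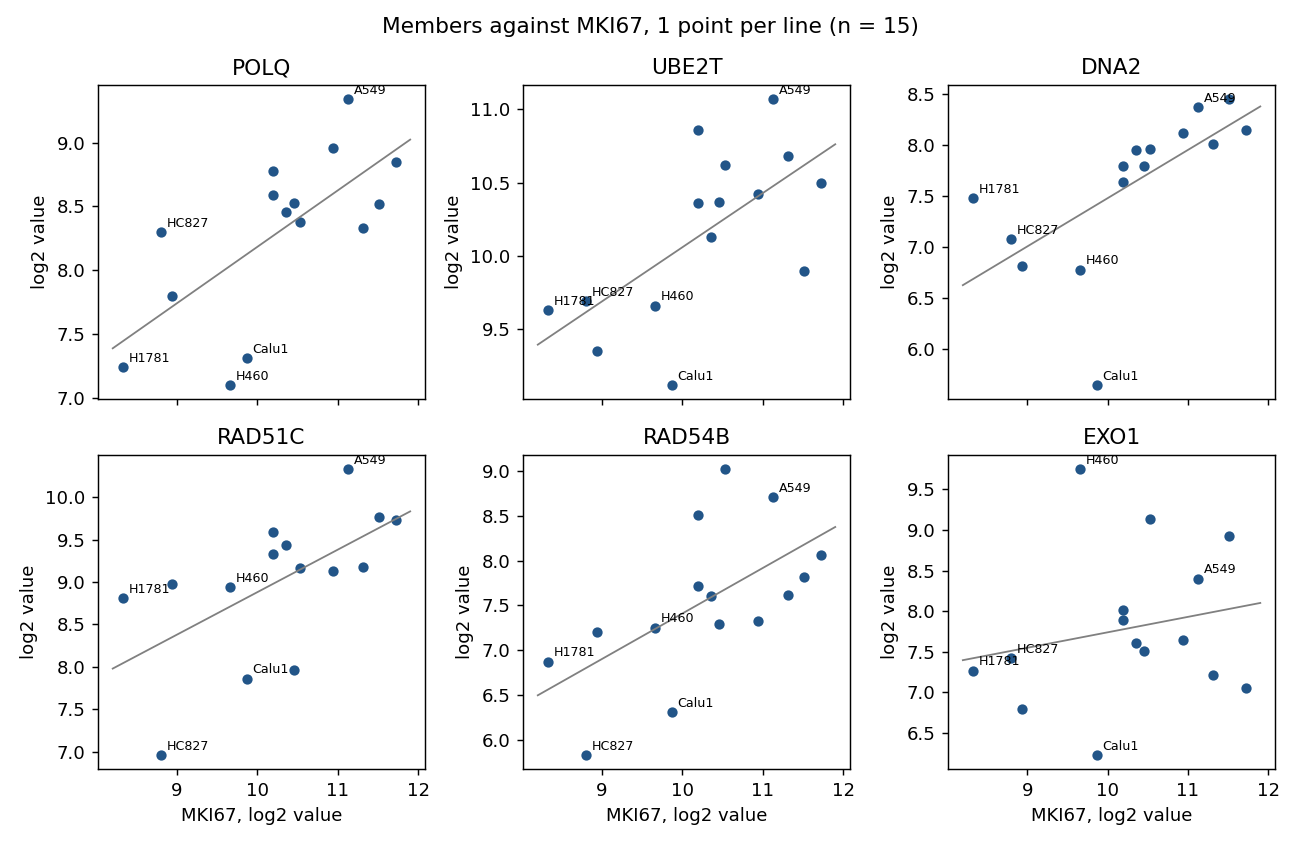
Log2 value of POLQ, UBE2T, DNA2, RAD51C, RAD54B and EXO1 against the log2 value of MKI67, 1 point for each of the 15 lines, with a least-squares line in grey. DNA2 rises with MKI67 (rho 0.89), but among H1781, HC827, H226, H460 and Calu1, the lowest lines of both genes, the 2 orders are opposite. Calu1 lies far under the rest in DNA2 at 5.65, and EXO1 has its highest point in H460 at 9.75.

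The MRE11, RAD50 and NBN proteins form the complex that senses a break and starts resection, and the lowest and the highest values of their transcripts fell in different lines. MRE11 lay between 7.37 in H460 and 9.60 in H1975, RAD50 between 7.66 in HC827 and 9.46 in A549, and NBN between 9.20 in H520 and 10.89 in H1437. Their slopes on MKI67 were 0.32 (SE 0.16), 0.12 (SE 0.13) and -0.06 (SE 0.15), in the same order. The other probe sets of MRE11 had r between 0.47 and 0.88 with the brightest, so its values depend in part on the probe set. EXO1, the other long-range nuclease, had the widest range of the 31 genes, 3.52, with a median of 7.61. It was highest in H460 at 9.75, followed by H1437 at 9.13, and lowest in Calu1 at 6.23, so the 2 lines with the lowest medians over the 31 genes stood at opposite ends of EXO1. EXO1 had 1 probe set, and its slope on MKI67 was 0.19 (SE 0.24).

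The recombinase paralogs, which remodel and protect the recombinase filament, had 1 gene among the 11. RAD51C lay at 6.96 in HC827, 7.86 in Calu1 and 7.96 in Calu3, and between 8.81 and 10.33 (A549) in the other 12 lines, a range of 3.38. Its slope was 0.51 (SE 0.18, limma adjusted p = 0.757), and without HC827 it was 0.33 (SE 0.17). Its probe sets had r between 0.01 and 0.99 with the brightest one, and the mean over all of them gave a slope of 0.35 (SE 0.12). The probe set with r of 0.01 was dim, between 3.33 and 3.97 in all lines. That with r of 0.99 was also lowest in HC827 and highest in A549. Another, with r of 0.74, was lowest in Calu3 at 6.97 and highest in H1975 at 9.46, so the extreme lines depend on the probe set. RAD51D lay between 6.83 and 7.32, the narrowest range of the 31 genes, with a slope of -0.02 (SE 0.05). RAD51B (range 1.87), XRCC2 (1.90) and XRCC3 (0.90) had slopes of 0.14, 0.16 and 0.06. The other probe sets of RAD51B had r between -0.33 and 0.07 with the brightest, and those of RAD51D between 0.11 and 0.26, so the order of the lines in these 2 genes is not settled by the array.

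In the BRCA complex, BRIP1, a helicase that binds BRCA1, lay between 4.77 in Calu1 and 7.18 in H1975 with a median of 5.75 and a slope on MKI67 of 0.42 (SE 0.18). H1975, H2228 (7.02), H2009 (6.75) and H358 (6.56) were its 4 highest lines. BRCA1 lay between 6.84 in Calu1 and 8.99 in H1975, and BARD1, its partner in the ubiquitin ligase, between 7.08 in H1437 and 9.19 in H2228. PALB2, which joins BRCA1 to the recombinase loader, lay between 7.99 in H460 and 9.56 in H1650 with a median of 8.82 and a slope of -0.02 (SE 0.12). The slopes of BRCA1 (0.17, SE 0.17) and BARD1 (0.14, SE 0.18) were no larger than their SE.

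Of the 10 genes of the Fanconi core complex and its partners, 4 were among the 11. UBE2T, the enzyme that hands ubiquitin to the core complex, lay between 9.12 in Calu1 and 11.07 in A549 with a median of 10.36 and a slope of 0.37 (SE 0.12, limma adjusted p = 0.631). FANCI, a substrate of that reaction, lay between 7.90 in HC827 and 10.18 in A549 with a slope of 0.41 (SE 0.15). Its r with MKI67 was 0.60, and 0.28 without H1781 and HC827, so its relation rested on these lines. FANCB, a core subunit, lay between 5.91 in H460 and 7.90 in H2009 (slope 0.41, SE 0.14), and SLX4, the scaffold of the nucleases, between 7.28 in HC827 and 8.75 in H520 (slope 0.23, SE 0.08). The core subunits FANCG and FANCL and the helicase FANCM had slopes of 0.23, 0.23 and 0.20, while FANCE (-0.15) and FANCF (-0.08) had negative ones. The core subunits thus had slopes of both signs, and those of FANCE and FANCF were no larger than their SE. The other probe sets of FANCE had r of 0.33 and 0.62 with the brightest, and those of FANCM 0.28 and 0.69, so the values of these genes depend on the probe set.

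FANCC, another core subunit, stood apart in 1 line. It was 8.09 in H2228, 1.21 above H358 as the next line at 6.87, and between 5.80 and 6.87 in the 14 other lines, for which distance it was singled out. All 3 probe sets of FANCC were highest in H2228, the others at 6.40 and 6.00 against 5.77 and 5.58 in the next line. Of the 10 nearest measured genes, 3 lay above their own median in H2228 and 1 (SLC71A2) had its highest value there, with a median difference of -0.22. The E2F letters of the promoter shown above are those of the reference sequence, and the sequence of H2228 was not read.

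Pairs of the 31 genes had a median r of 0.27 over the lines, with 36 of 465 pairs over 0.7 and 9 under -0.5. The highest were RAD54B with FANCI (0.90), BLM with FANCI (0.89), FANCG with UBE2T (0.86) and BLM with UBE2T (0.84). Of these pairs, FANCG with UBE2T lay within 1 role and the others joined genes of different roles. FANCI and BLM lie on the same chromosome, at chr15:89243979-89317259 and chr15:90717346-90816166. Copy number was not measured, and its part in their r was not tested. DNA2 (0.55) and POLQ (0.49) had the highest median r with the other genes. All points share the 15 arrays, so the values describe the table.

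To set the genes beside intrinsic radiosensitivity, a slope on SF2 was fitted in the same way. Of the 31 genes, 0 had an adjusted p under 0.05 in limma (lowest 0.998), as did 0 of 18132 genes (0%), and 0 of 31 had an unadjusted p under 0.05, where 4.56% of all genes did, 2.18% with a positive and 2.37% with a negative slope. The slope was positive in 27 of 31 genes with a median of 0.11. Over all genes it was positive in 8888 of 18132 with a median of 0.00. The median over the 31 genes in a line had an r of 0.30 and a rho of 0.47 with SF2. Most of the 31 slopes were thus positive in sign, but none lay beyond the spread between lines. The genes share the same lines and are correlated with one another, so their signs are not separate observations. The SF2 values have an error of their own that the fit does not carry, and that of H520 was taken by the study from the literature.

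The largest slope on SF2 was that of EXO1, 0.45 log2 units per SD of SF2 (SE 0.22, limma unadjusted p = 0.0547, adjusted p = 0.998), with an interval of 2 SE from 0.01 to 0.89. That interval is slightly narrower than the one that goes with a p of 0.05, so a slope of 0 is not excluded for EXO1. BRIP1 followed with 0.38 (SE 0.19), MRE11 with 0.33 (SE 0.16), FANCC and POLQ with 0.25 each (SE 0.14 and 0.16) and BLM with 0.19 (SE 0.18). In the 5 lines with the highest SF2, BRIP1 was 7.02 in H2228, 6.56 in H358, 5.78 in HC827, 5.84 in A549 and 7.18 in H1975, all over its median of 5.75. Of these, HC827 and A549 lay only 0.03 and 0.09 over that median. In the 5 lines with the lowest SF2, it was 4.79 in H1781, 6.75 in H2009, 5.16 in Calu3, 5.45 in H226 and 4.86 in H1437, so H2009 alone lay over that median. Without H2009 the slope of BRIP1 was 0.61 (SE 0.16, limma adjusted p = 0.564). H2009 was picked out here after its value had been seen, so that slope is a description and no support. Spearman's rho with SF2 was 0.60 for BRIP1 (permutation p = 0.0218), 0.58 for FANCC (permutation p = 0.0251) and 0.56 for EXO1 (permutation p = 0.033), each with n = 15 and none adjusted for the 31 genes tried. Pearson's r over the same lines was 0.47 for BRIP1 (permutation p = 0.0763), 0.45 for FANCC (permutation p = 0.0942) and 0.48 for EXO1 (permutation p = 0.067), none of them under 0.05. Without H1781 and H2009, the lines farthest from the median of SF2, Pearson's r was 0.69 for BRIP1, 0.45 for FANCC and 0.42 for EXO1.

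The same order along SF2 was less even in the other genes of this group. EXO1 was highest in H460, at rank 9 of SF2, and next in H1437, at rank 5 and so among the 5 lines with the lowest SF2, which runs against its positive slope. MRE11 lay between 8.74 and 9.60 in the 5 lines with the highest SF2 and between 7.61 and 9.30 in the 5 with the lowest, and these ranges overlapped. FANCC lay between 6.23 and 8.09 in the 5 highest and between 5.82 and 6.56 in the 5 lowest. Without H2228 the slope of FANCC was 0.20 (SE 0.09), so the line with the highest FANCC did not carry the slope alone. For most other genes the interval of 2 SE held 0 with room on both sides, as from -0.18 to 0.50 for BRCA1, from -0.27 to 0.61 for RAD51C and from -0.28 to 0.28 for RAD52, so slopes of either sign are within the error.

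MKI67 and SF2 were themselves related only weakly over the lines, with an r of 0.24 (permutation p = 0.396, n = 15) and a rho of 0.16. With MKI67 as a second term, 0 of 18131 genes (0%) had an adjusted p under 0.05 on SF2 in limma, and 0 of 31 had an unadjusted p under 0.05, against 4.11% of all genes, 1.92% with a positive and 2.19% with a negative slope. The slope on SF2 was then 0.43 (SE 0.23) for EXO1, 0.25 (SE 0.14) for FANCC, 0.30 (SE 0.18) for BRIP1, 0.26 (SE 0.16) for MRE11, 0.16 (SE 0.13) for POLQ and 0.09 (SE 0.16) for BLM. EXO1 and FANCC, whose slopes on MKI67 were within their SE, kept nearly the same value, while those of POLQ and BLM were smaller. The median over the 31 genes was 0.05, with 24 positive slopes. Over all genes it was -0.01, with 8618 positive slopes of 18131.

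Other genes of the pathway were counted in the same fits. Of 39 further homologous recombination and Fanconi genes, 31 had a positive slope on MKI67 with a median of 0.09, and 3 had an unadjusted p under 0.05 in each direction. PARPBP, which restrains recombination, had a slope of 0.46 (SE 0.10, limma adjusted p = 0.196). MCM8, a helicase of homologous recombination, had 0.46 (SE 0.14), and FAAP100, a core complex subunit, had -0.21 (SE 0.06). On SF2, 23 of the 39 had a positive slope with a median of 0.05, and 1 had an unadjusted p under 0.05 in each direction. These were MCM8 (0.52, SE 0.13, limma adjusted p = 0.998) and FAAP20 (-0.28, SE 0.10). The slope of MCM8 on SF2 was larger than that of any of the 31 genes. With MKI67 in the fit it was 0.43 (SE 0.09, limma adjusted p = 0.997). Of 12 genes of end joining, the competing pathway, 8 had a positive slope on MKI67 with a median of 0.09. In 3 of the 12 the unadjusted p was under 0.05, each with a positive slope. Over all genes 9929 of 18131 slopes on MKI67 were positive. Of 29 replication genes, 26 had a positive slope on MKI67 with a median of 0.17 and 28 a positive slope on SF2 with a median of 0.27. At an unadjusted p under 0.05 there were 4 of the 29 on MKI67 and 3 on SF2, all with a positive slope. The 31 genes had medians of 0.19 on MKI67 and 0.11 on SF2, so they lay near the replication genes on MKI67 and under them on SF2. These differences between lists were not tested.

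The epithelial keratins KRT8, KRT18 and KRT19 were at 9.74 or more in all 15 lines. KRT7, another epithelial keratin, had a median of 12.52 but was 4.2 in H520, under the lower quartile of the array. EPCAM was under that quartile in 2 lines and CDH1 in 2. Of 9 markers of blood, vessel and fibroblast cells, PTPRC and DCN were under the lower quartile in 15 of 15 lines, and CD3E and COL1A2 were under the array median in 15 of 15. The vessel markers PECAM1 (6.15 to 7.0) and VWF (5.82 to 6.51) were under the array median in 0 and 2 lines. COL1A1 reached 9.56 in Calu1, CD14 9.64 in H1437 and LUM 8.63 in H2228. H1781 (2.09) and H3122 (1.90) had the largest excess of the 3′ over the 5′ control probes of actin, a measure of RNA integrity and labelling, against 0.63 to 1.30 in the other 13 lines. That difference had an r of 0.17 with the median over the 31 genes, and its part in the results was tested only by leaving both lines out, after which 8 of 31 genes had an unadjusted p under 0.05 on MKI67.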

How the data were processed

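Each deposited column holds RMA log2 values of 1 line; the authors ran RMA with affy 1.64.0, according to the submitters' processing notes, and RMA equalises the distributions of the arrays and compresses low signals. Control probe sets were left out, as were those with several genes or none in the platform annotation. The sources differ on labelling and RNA extraction, and scan dates and batches are not given in the sources used here. Precision is limited by the number of arrays. SF2 came from the clonogenic assay of the study and entered only as a predictor.

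Slopes were fitted with limma 3.58.1 (lmFit and eBayes; R 4.3.3, statmod 1.5.0) on standardised MKI67, on standardised SF2 and on both, with Benjamini-Hochberg adjustment over all genes. Correlations of single genes used 100000 two-sided permutations and were not adjusted over the list, the fit being adjusted over all genes; 31 genes were correlated with MKI67 and with SF2. The rest was computed with pandas 2.3.3, scipy 1.17.1 and numpy 2.4.6 under Python 3.11.15, and plotted with matplotlib 3.10.9. The fit was tested on simulated data.

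The genes, roles and lists were chosen with earlier results of these data known. Genes were named by rule: the 6 largest and 4 smallest slopes on MKI67, the 6 largest on SF2, any gene with 1 line at least 1 log2 unit beyond the next, and the 3 widest ranges; the other genes were added for completeness. Alternatives were the mean of all probe sets, a filter at a mean of 5, trend and robust moderation, array weights, median centring, histology, the 2 lines with uneven actin probes, the rank of SF2, SF2 with no spread given, a proliferation index and each line left out.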

Additional observations from a re-analysis of the deposited data

How the results depend on the processing

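No gene of the 31 was called at an adjusted p under 0.05 by limma on MKI67 or on SF2, with or without MKI67 in the fit, under any alternative tried; the lowest adjusted p of the 31 on MKI67 lay between 0.148 (without Calu1) and 0.744 (without H1781 and H3122). Genes called on MKI67 numbered 13, but 3 without the 3 squamous lines, 0 with the adenocarcinoma lines only, 0 without H1781 and H3122, and 24 with the proliferation index in place of MKI67. With each line left out they numbered between 3 (without HC827) and 19, with 4 without H226 and 5 without H1781 or H1975. On SF2, the count of the 31 genes at an unadjusted p under 0.05, 0 as reported, was 1 with the mean of all probe sets, 1 with array weights, 1 with arrays centred on their median, 2 in the adenocarcinoma lines only, 3 with the rank of SF2 (BRIP1, MRE11 and FANCC), 1 without H358, H1437 and H520, and between 0 and 3 with each line left out (3 without H2009 or H460, 2 without H1437 or HC827, 1 without H2228). With MKI67 in the fit it was 1 with the mean of all probe sets, 1 in the adenocarcinoma lines only and between 0 and 3 with each line left out (3 without H2009, 1 without H1437, H460 or HC827). Slopes on MKI67 near 0 turned sign. That of NBN was 0.08 with the mean of all probe sets, 0.01 without the squamous lines, 0.01 in the adenocarcinoma lines only, and between -0.13 and 0.02 with each line left out (0.02 without H520). That of RAD52 was -0.02 with the mean of all probe sets, -0.02 with array weights, -0.01 without H1781 and H3122, -0.13 with the proliferation index, and between -0.04 and 0.06 with each line left out. That of PALB2 was 0.02 with array weights, 0.11 without the squamous lines, 0.05 in the adenocarcinoma lines only, 0.08 with the proliferation index, and between -0.06 and 0.05 with each line left out. The other named slopes kept their sign. The causes were not tested. No paired analysis was possible because each line has 1 array and the labels give no replicate numbers.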
